A study of Homo sapiens with 18 samples.

Results

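The HOX cluster genes are the 39 protein-coding genes of the HOXA, HOXB, HOXC and HOXD clusters, taken by gene symbol from the 60603 rows of the H1650 count table and the 60649 rows of the PC9 count table. All 39 were present in both tables. By GENCODE 29 on GRCh38, 11 HOXA genes lie on chromosome 7 (27092993 to 27200106, reverse strand), 10 HOXB genes on chromosome 17 (48528526 to 48729178, reverse strand), 9 HOXC genes on chromosome 12 (53938765 to 54056030, forward strand) and 9 HOXD genes on chromosome 2 (176092891 to 176190907, forward strand).

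HOX genes encode homeodomain transcription factors that set position along the head-to-tail axis of the embryo and keep a positional record in adult cells. Within a cluster their order on the chromosome follows the order in which they are used, with low numbers used toward the head and high numbers toward the tail, and genes of the same number in different clusters are paralogues. Polycomb complexes hold the clusters silent, MLL/trithorax complexes keep them active, and proteins of the PBX, MEIS and PKNOX families bind DNA together with HOX proteins.

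RNA was measured in a pair of cell lines from human lung adenocarcinoma with an activating EGFR mutation, H1650 and PC9, for a study of S100A9 in brain metastasis. Each line had 3 groups of 3 libraries, labelled Tr-BrM with the treatment S100A9-inh, Tr-BrM with the treatment control, and BrM with the treatment control. The labels do not state how S100A9 was inhibited or what Tr stands for, and their names are kept here. They do not tell separate cultures or clones from repeat preparations either, so the p-values cover the spread among libraries, part or all of which may be technical. Levels are CPM (counts per M of the TMM-scaled library total), changes are log2 fold changes ± SE with n = 3 against 3, and "rose" and "fell" mark an adjusted p under 0.05 in edgeR's quasi-likelihood test over all tested genes of a line.

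Total counts ran from 17.40 to 27.11 M in the H1650 libraries and from 18.17 to 21.75 M in the PC9 libraries. S100A9, the targeted gene, averaged 96.2 ± 8.50 CPM in S100A9-inh, 307 ± 25.2 CPM in Tr-BrM controls and 207 ± 9.04 CPM in BrM controls of H1650 (SD, n = 3 each). In PC9 it averaged 33.3 ± 2.57 CPM in S100A9-inh, 745 ± 11.9 CPM in Tr-BrM controls and 122 ± 4.32 CPM in BrM controls (SD, n = 3 each). Epithelial markers were high in every group, while the lung lineage markers NKX2-1, NAPSA, SFTPB, SFTPC and SFTPA1 averaged below 1 CPM in every group of both lines. FOXA2, also listed as a lung lineage marker, averaged 0.416 CPM in S100A9-inh, 0.0495 CPM in Tr-BrM controls and 1.55 CPM in BrM controls of PC9, and below 1 CPM in every group of H1650. The 12 listed epithelial and lung markers summed to 9042 to 9371 CPM in Tr-BrM controls and 10787 to 10857 CPM in BrM controls of H1650. In PC9 their sums were 19993 to 20521 CPM in Tr-BrM controls and 26080 to 26549 CPM in BrM controls. Between these groups 1 of 6 tested rose and 4 fell in H1650, and 0 of 7 rose and 6 fell in PC9. Of all tested genes 31.7% fell in H1650 and 30.3% in PC9. Replicate 1 of PC9 S100A9-inh stood apart from its group, with a chi-square per degree of freedom of 6.51 and 5.85 against the other replicates, which were at 2.05 with each other. Counts of called HOX genes that rest on it are given with and without it, with each call that its removal changed.

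A HOX gene was tested where its counts passed the low-count filter, which 30 of the 39 did in H1650 and 20 of the 39 in PC9. A group mean of at least 1 CPM was reached in some group by 24 members in H1650 and by 17 in PC9. In H1650 the other 15 stayed at or below a group mean of 0.86 CPM, and HOXB1 had no count in any library. In PC9 the HOXD cluster was nearly silent: HOXD3, HOXD4, HOXD9, HOXD10, HOXD11 and HOXD12 had 0 counts in all 9 libraries, and the whole cluster summed to 33 counts in S100A9-inh, 44 in Tr-BrM controls and 15 in BrM controls. Counts are not stated to use strand, and 25 of the 39 genes share exon bases with a neighbour or an antisense RNA, 5 of them (HOXA7, HOXC5, HOXD1, HOXD3 and HOXD4) over more than 50% of their length, so that reads of such pairs cannot be told apart.

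Per length, HOXC13, a high-numbered gene known from hair and nail formation, was the most abundant HOX transcript of H1650, at 14.0 ± 1.35 RPKM in S100A9-inh, 12.3 ± 0.85 RPKM in Tr-BrM controls and 13.2 ± 0.41 RPKM in BrM controls (counts per kilobase of exon and per M counts, SD, n = 3 each). HOXB7 led in PC9, at 15.1 ± 1.90 RPKM in S100A9-inh, 8.97 ± 0.85 RPKM in Tr-BrM controls and 12.98 ± 1.32 RPKM in BrM controls. The gene next below HOXB7 in PC9 was HOXB6 in S100A9-inh at 3.01 RPKM, HOXC11 in Tr-BrM controls at 2.30 RPKM and, in BrM controls, HOXC13 at 3.66 ± 0.15 RPKM and HOXC11 at 3.63 ± 0.47 RPKM, which differed by less than their spread. In H1650 the second place differed by group: HOXB7 held it in S100A9-inh and in Tr-BrM controls at 7.40 ± 0.20 and 8.32 ± 0.58 RPKM. In the BrM controls HOXC10 at 7.78 ± 0.91 RPKM and HOXB7 at 7.52 ± 0.61 RPKM differed by less than their spread.

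**Figure D1:**
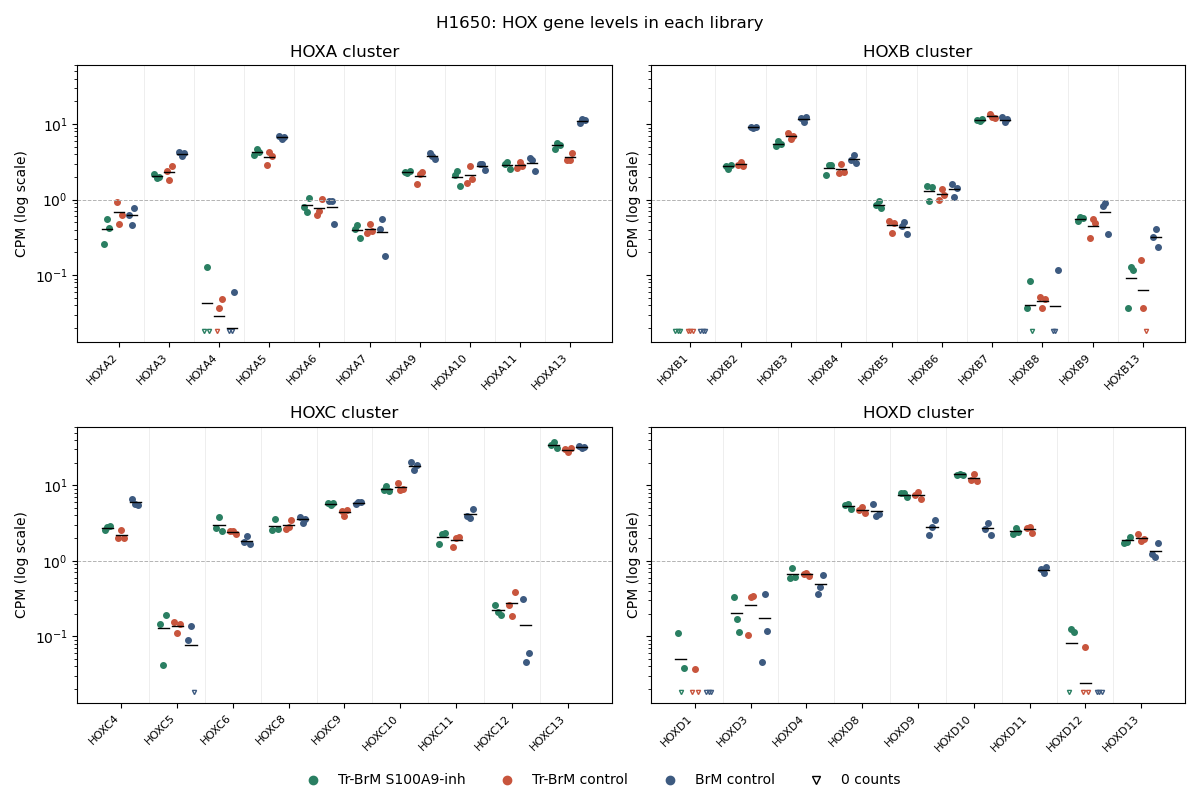
CPM of HOX genes in each H1650 library on a log axis, by cluster and gene number. Points are libraries, black bars are means of 3, open triangles mark 0 counts and the dashed line is 1 CPM. HOXD9, HOXD10 and HOXD11 in Tr-BrM controls lie above all BrM controls, while HOXA13, HOXB2, HOXC4 and HOXC10 lie below them.

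Upstream sequence is shown for 4 genes whose H1650 levels differed between Tr-BrM and BrM controls, HOXD11 and HOXD13 among the genes that rose and HOXA9 and HOXA13 among those that fell. The RefSeq promoter table (GRCh38.p14) held 27 windows of 250 bases for 20 of the 39 genes. Stretches that GENCODE 29 annotates as UTR are left out of the sequences printed here, while shares and CpG counts use the full windows. Letters in capitals mark matches, on either strand, to the TATA box (TATAAA), the CCAAT box (CCAAT), a site of CDX type (TTTATG) and a composite site bound by HOX and PBX proteins together (TGATTNAT). The stretches are chr2:176107030-176107279 forward for HOXD11, chr2:176092471-176092720 forward for HOXD13, chr7:27165538-27165787 reverse for HOXA9 and chr7:27200107-27200341 reverse for HOXA13, each written 5′ to 3′ on the gene's strand.
HOXD11: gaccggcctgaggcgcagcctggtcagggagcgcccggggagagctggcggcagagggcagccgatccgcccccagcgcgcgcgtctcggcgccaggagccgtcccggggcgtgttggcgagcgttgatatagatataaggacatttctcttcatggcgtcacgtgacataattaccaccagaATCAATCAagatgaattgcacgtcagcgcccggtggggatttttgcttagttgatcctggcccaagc
HOXD13: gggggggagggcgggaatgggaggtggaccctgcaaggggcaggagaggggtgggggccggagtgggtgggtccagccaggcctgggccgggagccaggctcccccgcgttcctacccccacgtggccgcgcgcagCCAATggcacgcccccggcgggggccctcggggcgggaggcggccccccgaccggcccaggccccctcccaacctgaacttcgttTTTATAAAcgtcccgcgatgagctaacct
HOXA9: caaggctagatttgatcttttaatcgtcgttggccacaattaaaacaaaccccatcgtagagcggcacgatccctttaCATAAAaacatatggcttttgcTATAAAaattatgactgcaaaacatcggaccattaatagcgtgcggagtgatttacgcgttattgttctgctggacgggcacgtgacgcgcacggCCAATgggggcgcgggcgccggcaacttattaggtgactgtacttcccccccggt
HOXA13: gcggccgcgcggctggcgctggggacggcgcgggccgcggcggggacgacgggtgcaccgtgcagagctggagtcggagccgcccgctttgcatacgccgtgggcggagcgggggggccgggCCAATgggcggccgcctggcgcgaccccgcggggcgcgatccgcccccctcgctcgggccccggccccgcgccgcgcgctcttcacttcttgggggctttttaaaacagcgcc

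The HOXD11 window held a composite HOX-PBX match, on the opposite strand at bases 184 to 191 counted from the 5′ end of the window. Such a match was present in 2 of the 27 HOX windows, those of HOXD11 and HOXA2, and in 2.48% of the 35116 windows of the same length in the table. The HOXA2 match lies within the 128 bases of its window that are annotated as UTR. A TATA box was present in HOXD13 within 29 bases of the RefSeq start, which lies before the GENCODE 29 start at 176092891, and matches on both strands overlap there. In HOXA9 it lay 150 bases before the RefSeq start beside a CDX-type match on the opposite strand. The TATA box was present in 18.5% of the HOX windows and 10.7% of all windows, the CDX-type site in 11.1% of the HOX windows and 9.64% of all windows, and the CCAAT box in 66.7% of the HOX windows and 32% of all windows. Some HOX genes have several windows, and HOXC4 and HOXC5 share the same window. That window, the HOXD4 window and a window of HOXA10 are annotated as UTR throughout. The median number of CpG dinucleotides was 19 in HOX windows and 11 in all windows. A match is a string of letters, and binding was not measured.

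In H1650, HOXD9, HOXD10, HOXD11 and HOXD13 were higher in Tr-BrM than in BrM controls, while genes of the HOXA, HOXB and HOXC clusters were lower. Of the 30 tested members, 4 rose and 11 fell, and 15 did not pass the test. All 4 that rose were HOXD genes, of 6 tested, and the 11 that fell were 4 of 10 tested HOXA genes, 3 of 7 HOXB genes and 4 of 7 HOXC genes. Across all 17937 tested genes 63.9% were called, 32.2% higher and 31.7% lower, so that the share of HOX members called, 50%, was below the background. When scaled by library size alone, 6 members were higher and 10 lower, with 6802 of all genes higher and 4672 lower in place of 5777 higher and 5692 lower. The median log2 change was -0.16 over the tested members, 0.99 over HOXD alone, and 0.00 over all tested genes.

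HOXD10, a gene used in limb and spinal cord patterning, changed most in this comparison. It had 11.7, 14.0 and 11.4 CPM in Tr-BrM controls, against 2.67, 3.18 and 2.19 CPM in BrM controls, and rose by 2.20 ± 0.13 on the log2 scale (adjusted p = 4.00e-15 in edgeR). HOXD9, its neighbour, had 7.44, 8.05 and 6.56 CPM in Tr-BrM controls, against 2.17, 2.82 and 3.49 CPM in BrM controls, a log2 change of 1.41 ± 0.15. HOXD11 had 2.70, 2.78 and 2.33 CPM in Tr-BrM controls, against 0.77, 0.68 and 0.83 CPM in BrM controls, a log2 change of 1.79 ± 0.23. The groups did not overlap for any of these genes, and HOXD10 and HOXD11 share 16.8% and 21.4% of their exon bases with each other. HOXD13, which patterns digits, had 2.24, 1.83 and 1.94 CPM in Tr-BrM controls, against 1.22, 1.14 and 1.72 CPM in BrM controls (log2 0.57 ± 0.23, adjusted p = 0.0279 in edgeR). That call was lost without BrM replicate 1, BrM replicate 2 or Tr-BrM replicate 1, at adjusted p 0.0898 to 0.122, and DESeq2 did not make it (adjusted p = 0.118). HOXD8 did not pass, with 4.68, 5.20 and 4.32 CPM in Tr-BrM controls, against 5.69, 3.91 and 4.20 CPM in BrM controls, and the groups overlapped.

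Long non-coding RNAs of the same locus were measured beside these genes. HAGLR, transcribed antisense between HOXD1 and HOXD3, had 2.60, 2.74 and 2.24 CPM in Tr-BrM controls, against 0.27, 0.77 and 0.12 CPM in BrM controls, and rose by 2.62 ± 0.34. HAGLROS had 3.43, 3.66 and 4.71 CPM in Tr-BrM controls, against 0.77, 0.77 and 1.36 CPM in BrM controls, a log2 change of 2.06 ± 0.22. HOXD-AS2 rose by 1.34 ± 0.33. Of the 14 tested HOX locus RNAs, these 3 rose and 4 fell, among them HOXA10-AS by 1.03, HOXC-AS2 by 0.99 and HOTAIRM1 by 0.95 on the log2 scale. Over all tested genes 32.2% rose and 31.7% fell.

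Among the HOXA genes of H1650, the largest fall was that of HOXA13, the last gene of the cluster, known from limb and urogenital development. It had 3.38, 3.37 and 4.13 CPM in Tr-BrM controls, against 10.4, 11.6 and 11.2 CPM in BrM controls, a log2 change of -1.62 ± 0.12 (adjusted p = 1.46e-12 in edgeR). HOXA3, known from the pharyngeal arches, had 2.39, 1.79 and 2.77 CPM in Tr-BrM controls, against 4.25, 3.82 and 4.14 CPM in BrM controls (log2 -0.83 ± 0.17). HOXA5, which lung development needs in mice, had 2.91, 4.28 and 3.79 CPM in Tr-BrM controls, against 6.91, 6.41 and 6.68 CPM in BrM controls (log2 -0.84 ± 0.14). HOXA9, known from leukaemia and blood progenitors, had 1.61, 2.20 and 2.33 CPM in Tr-BrM controls, against 4.16, 3.73 and 3.43 CPM in BrM controls (log2 -0.88 ± 0.17). None of these groups overlapped. HOXA10 and HOXA11 did not pass, with log2 changes of -0.38 and -0.13 and overlapping groups. HOXA10 had 1.66, 2.78 and 1.90 CPM in Tr-BrM controls, against 2.94, 2.96 and 2.48 CPM in BrM controls. HOXA11 had 2.60, 3.15 and 2.77 CPM in Tr-BrM controls, against 3.52, 3.37 and 2.37 CPM in BrM controls. HOXA10 passed without Tr-BrM replicate 2 (adjusted p = 0.0166 in edgeR).

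Among the tested HOXB genes of H1650, HOXB2, HOXB3 and HOXB4 fell. HOXB13, at the high-numbered end, was below the low-count filter, with 4 counts in Tr-BrM controls and 20 in BrM controls and no overlap. HOXB2, which acts in the hindbrain, had 2.86, 3.18 and 2.82 CPM in Tr-BrM controls, against 9.03, 8.87 and 9.29 CPM in BrM controls, a log2 change of -1.61 ± 0.12 (adjusted p = 3.44e-12 in edgeR). HOXB3 had 7.65, 6.29 and 7.05 CPM in Tr-BrM controls, against 12.1, 10.8 and 12.3 CPM in BrM controls (log2 -0.75 ± 0.11). HOXB4, known from blood stem cells, had 2.24, 2.96 and 2.33 CPM in Tr-BrM controls, against 3.30, 3.87 and 3.08 CPM in BrM controls (log2 -0.43 ± 0.18, adjusted p = 0.0356 in edgeR). The HOXB4 call was lost without any of 4 libraries, BrM replicates 1 and 2 and Tr-BrM replicates 1 and 3 (adjusted p 0.0521 to 0.168), when scaled by library size alone, and in DESeq2 (adjusted p = 0.14). HOXB7 had 13.7, 12.3 and 12.1 CPM in Tr-BrM controls, against 12.4, 10.5 and 11.6 CPM in BrM controls, with overlapping groups and no call. HOXB6 had 0.99, 1.39 and 1.17 CPM in Tr-BrM controls, against 1.63, 1.09 and 1.42 CPM in BrM controls, and did not pass either.

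In the HOXC cluster of H1650, HOXC4, the gene nearest the low-numbered end, had 1.98, 2.52 and 1.99 CPM in Tr-BrM controls, against 6.59, 5.69 and 5.56 CPM in BrM controls (log2 -1.44 ± 0.15). HOXC10, used in hindlimb and lumbar patterning, had 10.7, 8.56 and 9.04 CPM in Tr-BrM controls, against 20.1, 15.9 and 18.3 CPM in BrM controls (log2 -0.95 ± 0.10). HOXC11 had 1.51, 1.98 and 2.09 CPM in Tr-BrM controls, against 3.93, 3.68 and 4.91 CPM in BrM controls (log2 -1.14 ± 0.18). These groups stood apart in each case, and the smaller fall of HOXC9 did too, with 4.58, 3.95 and 4.71 CPM in Tr-BrM controls against 5.69, 5.96 and 6.03 CPM in BrM controls (log2 -0.43 ± 0.12). HOXC13 had 30.3, 27.4 and 31.3 CPM in Tr-BrM controls, against 33.0, 31.1 and 31.7 CPM in BrM controls (log2 -0.11 ± 0.07, adjusted p = 0.149 in edgeR). HOXC6 had 2.50, 2.49 and 2.28 CPM in Tr-BrM controls, against 1.76, 2.14 and 1.66 CPM in BrM controls (log2 0.38 ± 0.20), and HOXC8 had 2.60, 2.82 and 3.50 CPM in Tr-BrM controls, against 3.79, 3.18 and 3.61 CPM in BrM controls. Neither passed the test.

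Beside the H1650 falls, genes around the HOXA cluster were lower too. Of the 8 tested protein-coding genes within 1 Mb of it, 7 fell and 0 rose, with a median log2 change of -0.88, and within 5 Mb 25 of 44 fell and 12 rose, with a median of -0.36. Over all 657 tested genes of chromosome 7 the median was -0.04. Of 4 listed genes that flank the cluster, SKAP2, CBX3 and HNRNPA2B1 fell by 0.88, 0.52 and 0.46 on the log2 scale, and SNX10 was not called (log2 0.13). Around HOXD the direction was the other one than in the cluster, with 3 of 4 tested neighbours lower and a median of -0.23. The summed level of 10 astrocyte and neural markers ran from 315 to 326 CPM in Tr-BrM controls and from 135 to 137 CPM in BrM controls, with 6 of the 10 at 1 CPM or more in Tr-BrM controls and 5 in BrM controls. Of 9 tested, 7 rose, SLC1A3 (165 CPM in Tr-BrM controls, 23.4 CPM in BrM controls) and GFAP (63.2 CPM in Tr-BrM controls, 8.68 CPM in BrM controls) among them, and SYT1 and ALDH1L1 fell, SYT1 by 1.19 and ALDH1L1 to 0.64 CPM in Tr-BrM controls, against 2.66 CPM in BrM controls. Markers of fibroblasts, cells that keep strong HOX expression, also differed: the summed level of 10 markers ran from 166 to 186 CPM in Tr-BrM controls and from 31.0 to 32.9 CPM in BrM controls, with 8 of the 10 at 1 CPM or more in Tr-BrM controls and 4 in BrM controls. Of the 9 tested fibroblast markers 7 rose and 1 fell, where 32.2% of all tested genes rose and 31.7% fell. COL3A1 made up most of the Tr-BrM sums, and averaged 129 CPM in Tr-BrM controls and 13.4 CPM in BrM controls. The part of these in the HOX results was not tested. In bulk samples a change in the number of cells of a type and a change in RNA per cell cannot be told apart. These windows were chosen after the HOX values were seen.

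Under S100A9-inh few HOX genes of H1650 were called against Tr-BrM controls, and HOXA13 gave the smallest p. Of the 30 tested members 4 rose against Tr-BrM controls and 1 fell, or 16.7% of them, where 29.2% of all tested genes were called, 15.4% higher and 13.8% lower. The median log2 change was 0.07 over the members and 0.00 over all tested genes. When scaled by library size alone, the calls over all genes were 2201 higher and 3193 lower, in place of 2762 higher and 2468 lower. None of the 6 tested HOXD genes was called by edgeR or by DESeq2 and 0 had an unadjusted p under 0.05, with log2 changes from -0.10 to 0.17. HOXD10 stood at 13.7, 14.1 and 13.9 CPM in S100A9-inh, against 11.7, 14.0 and 11.4 CPM in Tr-BrM controls, and HOXD9 at 7.78, 7.93 and 6.90 CPM in S100A9-inh, against 7.44, 8.05 and 6.56 CPM in Tr-BrM controls.

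HOXA13 rose, with 4.70, 5.70 and 5.29 CPM in S100A9-inh, against 3.38, 3.37 and 4.13 CPM in Tr-BrM controls (log2 0.53 ± 0.13, adjusted p = 0.00239 in edgeR). Its level in S100A9-inh was still below all 3 BrM controls, by a log2 change of -1.09 ± 0.11. HOXA13 was also the 1 member of the 5 that DESeq2 called. The other calls were small or rested on few counts. HOXC9 had 5.80, 5.40 and 5.90 CPM in S100A9-inh, against 4.58, 3.95 and 4.71 CPM in Tr-BrM controls (log2 0.38 ± 0.12), and HOXC13 rose by 0.20 ± 0.06, with 33.8, 37.4 and 30.8 CPM in S100A9-inh against 30.3, 27.4 and 31.3 CPM in Tr-BrM controls, which overlapped. HOXB3 fell by 0.34 ± 0.11, with 5.10, 5.95 and 5.48 CPM in S100A9-inh against 7.65, 6.29 and 7.05 CPM in Tr-BrM controls. HOXB5, with 66 counts in S100A9-inh and 30 in Tr-BrM controls over 3 libraries each, rose by 0.93 ± 0.34. Each of these 4 calls was lost without at least 2 of the 6 libraries compared: HOXB5 without any of the 6 (adjusted p 0.0594 to 0.18), HOXB3 without replicate 1 or 3 of either group (0.0553 to 0.11), HOXC9 without Tr-BrM replicate 2 or S100A9-inh replicate 1 or 3 (0.0511 to 0.125), and HOXC13 without replicate 2 of either group (0.137 to 0.185).

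Further HOX genes of H1650 at 1 CPM or more, whose Tr-BrM values are given above, were not called between S100A9-inh and Tr-BrM controls. HOXA3 had 2.20, 1.94 and 1.99 CPM in S100A9-inh. HOXA5 had 3.93, 4.64 and 4.29 CPM and HOXA9 had 2.35, 2.24 and 2.42 CPM in S100A9-inh. HOXA10 had 2.13, 2.36 and 1.53 CPM and HOXA11 had 2.97, 3.16 and 2.53 CPM in S100A9-inh. All 5 of these HOXA genes overlapped the Tr-BrM controls, and HOXA3, HOXA5, HOXA9 and HOXA10 in S100A9-inh were below every BrM control. HOXB2 had 2.79, 2.57 and 2.91 CPM and HOXB4 had 2.09, 2.87 and 2.84 CPM in S100A9-inh. HOXB6 had 1.51, 0.97 and 1.46 CPM and HOXB7 had 11.3, 11.01 and 11.6 CPM in S100A9-inh. HOXB7 in S100A9-inh was below every Tr-BrM control without passing the test, and HOXB2 and HOXB4 in S100A9-inh were below every BrM control. HOXC4 had 2.53, 2.83 and 2.88 CPM and HOXC6 had 2.68, 3.80 and 2.49 CPM in S100A9-inh. HOXC8 had 2.57, 3.54 and 2.61 CPM and HOXC10 had 8.66, 9.70 and 8.32 CPM in S100A9-inh. HOXC11 had 1.69, 2.24 and 2.30 CPM in S100A9-inh. HOXC4 in S100A9-inh was above every Tr-BrM control without passing the test, and HOXC4, HOXC10 and HOXC11 in S100A9-inh lay below every BrM control. HOXD8 had 5.51, 5.70 and 4.87 CPM and HOXD11 had 2.28, 2.70 and 2.38 CPM in S100A9-inh. HOXD13 had 1.73, 1.77 and 2.07 CPM in S100A9-inh. All 3 of these HOXD genes overlapped the Tr-BrM controls, and HOXD11 and HOXD13 in S100A9-inh were above every BrM control.

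Against BrM controls, S100A9-inh in H1650 differed in 17 of the 30 tested members, 6 higher and 11 lower, where 63.6% of all tested genes were called, 32.5% higher and 31.2% lower. HOXD9, HOXD10 and HOXD11 were higher by 1.44 ± 0.14, 2.35 ± 0.12 and 1.69 ± 0.23, and HOXB2, HOXB3, HOXC4 and HOXC10 were lower by log2 changes of -1.71, -1.09, -1.12 and -1.03, with HOXC11 also lower. HOXC6 rose by 0.67 ± 0.19, with 2.68, 3.80 and 2.49 CPM in S100A9-inh against 1.76, 2.14 and 1.66 CPM in BrM controls. This comparison shares libraries with both others, so that its calls do not add to theirs. Calls of HOXA10, HOXB4 and HOXB5 were each lost without any of 3 single libraries, BrM replicate 1 among them every time (adjusted p 0.0501 to 0.219 over these). DESeq2 did not call HOXA10, HOXB4 or HOXB5 here either (adjusted p 0.149, 0.1717 and 0.1116).

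In PC9, HOXB and HOXC genes were lower in Tr-BrM than in BrM controls, and HOXA genes were not called. Of the 20 tested members 10 fell and 1 rose, or 55%, where 59.9% of all 16169 tested genes were called, 29.6% higher and 30.3% lower. All 6 tested HOXC genes fell, and 4 of 6 tested HOXB genes. Of the 7 tested HOXA genes 0 were called by edgeR, 0 had an unadjusted p under 0.05 and DESeq2 called 0 of 9, though HOXA9 passed without Tr-BrM replicate 2 (adjusted p = 0.0341 in edgeR). The median log2 change was -0.61 over the tested members, where HOXC4 at its bound below lies at the same end of the order, and 0.00 over all tested genes.

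**Figure D2:**
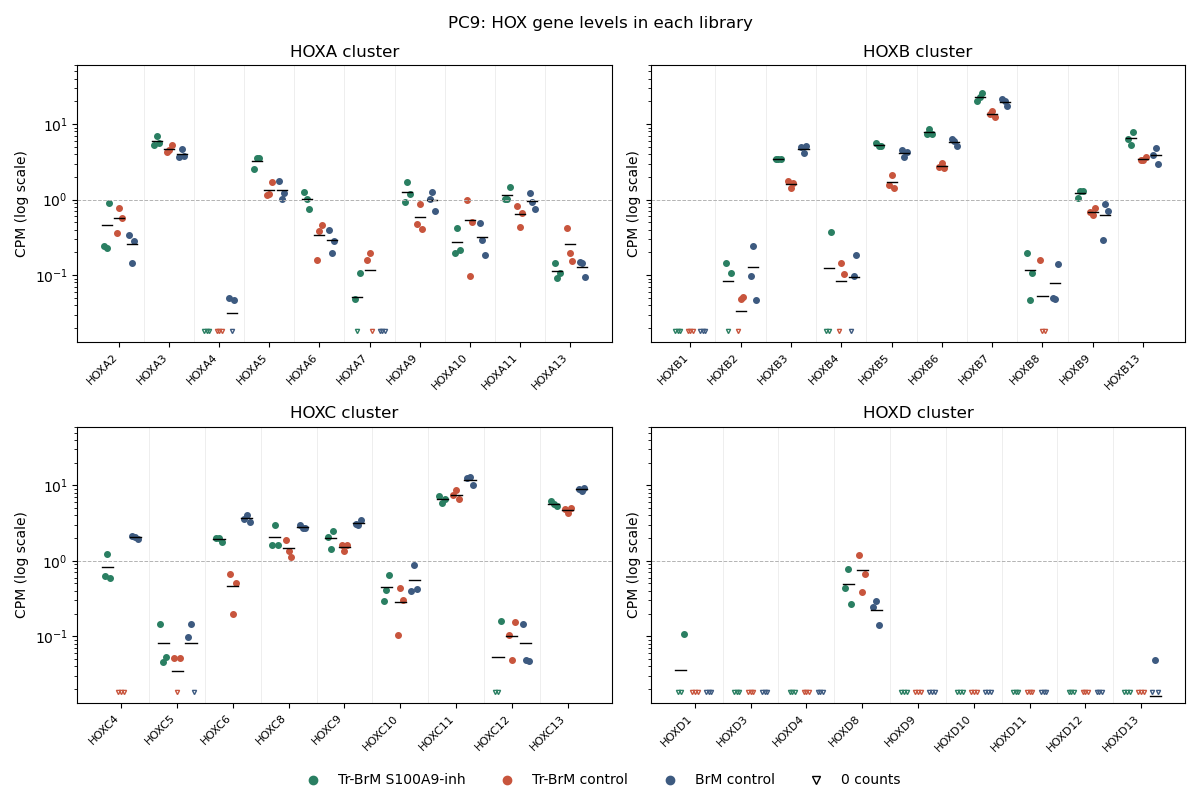
CPM of HOX genes in each PC9 library on a log axis, drawn as in the plot of H1650 levels: points are libraries, black bars means of 3, open triangles 0 counts and the dashed line 1 CPM. HOXC4 had 0 counts in all Tr-BrM controls, HOXB3, HOXB5 and HOXB6 were lower in Tr-BrM controls than in both other groups, and HOXD held few counts throughout.

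HOXC4 stood at 0 counts in all 3 Tr-BrM controls, against 128 counts in the BrM controls at 2.16, 2.04 and 1.95 CPM. With the group of Tr-BrM controls set to 3 counts as a floor, it was at least 40.5-fold lower there. HOXC6, which shares 15.7% of its exon bases with other genes, HOXC4 among them, had 0.68, 0.19 and 0.51 CPM in Tr-BrM controls, against 3.63, 4.08 and 3.30 CPM in BrM controls, a log2 change of -2.99 ± 0.29 (adjusted p = 2.12e-10 in edgeR). HOXC8, HOXC9, HOXC11 and HOXC13 fell as well, by 0.65 to 1.04 on the log2 scale. HOXC8 had 1.88, 1.36 and 1.13 CPM in Tr-BrM controls, against 2.94, 2.72 and 2.74 CPM in BrM controls (log2 -0.95 ± 0.25). HOXC9 had 1.61, 1.36 and 1.64 CPM in Tr-BrM controls, against 3.09, 2.96 and 3.44 CPM in BrM controls (log2 -1.04 ± 0.22). Neither pair of groups overlapped. HOXC11 had 7.34, 8.56 and 6.65 CPM in Tr-BrM controls, against 12.7, 12.8 and 10.1 CPM in BrM controls (log2 -0.65 ± 0.12), and HOXC13 had 4.79, 4.28 and 5.06 CPM in Tr-BrM controls, against 8.93, 8.46 and 9.20 CPM in BrM controls (log2 -0.91 ± 0.13).

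Other genes of chromosome 12 moved the same way in PC9. Within 1 Mb of the HOXC cluster 25 of 29 tested protein-coding genes fell and 1 rose in Tr-BrM controls, with a median log2 change of -0.62. Within 5 Mb 111 of 155 fell and 10 rose (median -0.60), and over the whole chromosome 412 of 672 fell and 93 rose (median -0.40), or 61.3% lower and 13.8% higher. The median change of the 6 tested HOXC genes was -0.99. The nearest listed neighbours, CALCOCO1 and SMUG1, fell by 1.42 and 0.47 on the log2 scale. Around HOXB the median was -0.11 within 1 Mb and -0.08 over chromosome 17. In H1650 the median of chromosome 12 was 0.02. The part of this chromosome-wide shift in the HOXC changes was not tested.

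**Figure D3:**
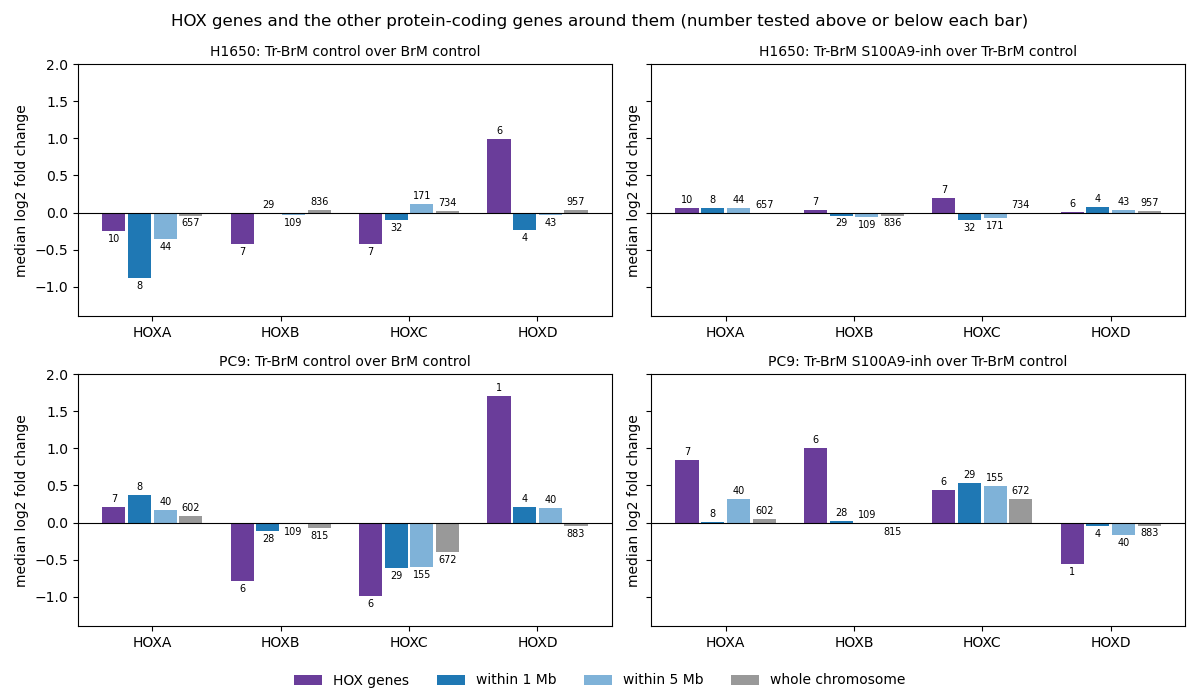
Median log2 fold change of the tested HOX genes of each cluster and of the other tested protein-coding genes within 1 Mb, within 5 Mb and on the whole chromosome, for both lines and 2 comparisons. The number of genes stands at each bar. In PC9 the bars around HOXC run from -0.62 to -0.40 for Tr-BrM over BrM controls and from 0.53 to 0.32 for S100A9-inh over Tr-BrM controls, and in H1650 those within 1 Mb of HOXA are at -0.88 for Tr-BrM over BrM controls.

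The HOXB genes of PC9 that fell were HOXB3, HOXB5, HOXB6 and HOXB7. HOXB3 had 1.77, 1.41 and 1.64 CPM in Tr-BrM controls, against 4.95, 4.08 and 5.11 CPM in BrM controls (log2 -1.55 ± 0.19, adjusted p = 1.78e-08 in edgeR). HOXB5, expressed in the developing lung, had 1.56, 2.09 and 1.43 CPM in Tr-BrM controls, against 4.51, 3.64 and 4.23 CPM in BrM controls (log2 -1.28 ± 0.19). HOXB6 had 2.71, 3.02 and 2.66 CPM in Tr-BrM controls, against 6.28, 5.88 and 5.16 CPM in BrM controls (log2 -1.04 ± 0.15). In each of these the groups stood well apart, and all 3 share exon bases with the antisense RNA HOXB-AS3, which fell by 1.07 ± 0.18. HOXB7, studied in several carcinomas as a driver of growth, had 13.6, 15.0 and 12.4 CPM in Tr-BrM controls, against 21.4, 20.5 and 17.6 CPM in BrM controls (log2 -0.53 ± 0.10). HOXB13, a prostate lineage gene, had 3.33, 3.36 and 3.63 CPM in Tr-BrM controls, against 3.87, 4.86 and 2.97 CPM in BrM controls, and HOXB9 stayed between 0.29 and 0.87 CPM in both groups. Neither passed.

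The tested HOXA genes of PC9 at 1 CPM or more overlapped between Tr-BrM and BrM controls, and none was called. HOXA3 had 4.32, 4.48 and 5.27 CPM in Tr-BrM controls, against 3.68, 4.67 and 3.81 CPM in BrM controls. HOXA5 had 1.15, 1.17 and 1.69 CPM in Tr-BrM controls, against 1.77, 1.02 and 1.21 CPM in BrM controls. HOXA6 had 0.16, 0.39 and 0.46 CPM in Tr-BrM controls, against 0.39, 0.19 and 0.28 CPM in BrM controls. HOXA3 was the most abundant of them in both groups. HOXA9 had 0.47, 0.88 and 0.41 CPM in Tr-BrM controls, against 1.03, 1.26 and 0.70 CPM in BrM controls. HOXA11 had 0.83, 0.44 and 0.66 CPM in Tr-BrM controls, against 1.23, 0.92 and 0.74 CPM in BrM controls.

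HOXD8, the 1 member that rose in PC9 Tr-BrM controls, rested on 44 counts against 14 in BrM controls. Its levels were 1.20, 0.39 and 0.66 CPM in Tr-BrM controls, against 0.25, 0.29 and 0.14 CPM in BrM controls (log2 1.71 ± 0.53). Without Tr-BrM replicate 1 the call was lost (adjusted p = 0.0935 in edgeR). Of the 6 HOX locus RNAs tested in PC9, 4 fell and 0 rose in Tr-BrM controls, where 30.3% of all tested genes fell and 29.6% rose. HOTAIR, which is transcribed within the HOXC cluster and is known to bind Polycomb complexes, had 1.46, 1.61 and 1.59 CPM in Tr-BrM controls, against 4.71, 5.20 and 3.72 CPM in BrM controls (log2 -1.54 ± 0.22), and HOXC13-AS and HOXC-AS2 fell by 1.33 and 1.97.

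Under S100A9-inh most tested HOX genes of PC9 rose against Tr-BrM controls, HOXA and HOXB genes above all. Of the 20 tested members 12 rose, or 60%, where 52.5% of all tested genes were called, 26.3% higher and 26.1% lower. In edgeR 0 fell, with 0 at an unadjusted p under 0.05, and DESeq2 called 0 of 22 lower and 9 higher. HOXA10, below 1 CPM in every group of PC9, was called lower without Tr-BrM replicate 2 (log2 -1.41 ± 0.56, adjusted p = 0.0403 in edgeR). By cluster 5 of 7 HOXA, 5 of 6 HOXB, 2 of 6 HOXC and 0 of 1 HOXD genes rose. The median log2 change was 0.82 over the tested members and 0.00 over all tested genes. Without S100A9-inh replicate 1 the count was again 12 higher and 0 lower, with HOXA11 no longer called (adjusted p = 0.056) and HOXC8 called in its place (adjusted p = 0.0334).

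The largest rises in CPM were those of HOXB genes. HOXB5 had 5.61, 5.16 and 5.05 CPM in S100A9-inh, against 1.56, 2.09 and 1.43 CPM in Tr-BrM controls, a log2 change of 1.63 ± 0.18 (adjusted p = 8.07e-09 in edgeR). HOXB6 had 7.50, 8.62 and 7.36 CPM in S100A9-inh, against 2.71, 3.02 and 2.66 CPM in Tr-BrM controls (log2 1.49 ± 0.15). HOXB7 had 20.3, 22.7 and 26.1 CPM in S100A9-inh, against 13.6, 15.0 and 12.4 CPM in Tr-BrM controls (log2 0.74 ± 0.10). For all 3 genes the lowest S100A9-inh library was above the highest Tr-BrM control. HOXB3 rose by 1.11 ± 0.20 to 3.48, 3.41 and 3.49 CPM in S100A9-inh, against 1.77, 1.41 and 1.64 CPM in Tr-BrM controls. HOXB13, which did not pass between Tr-BrM and BrM, had 6.39, 5.26 and 7.90 CPM in S100A9-inh, against 3.33, 3.36 and 3.63 CPM in Tr-BrM controls (log2 0.91 ± 0.17). HOXB9, with 1.07, 1.29 and 1.29 CPM in S100A9-inh against 0.68, 0.63 and 0.77 CPM in Tr-BrM controls, did not pass (log2 0.81, adjusted p = 0.0579 in edgeR). Both comparisons use the same Tr-BrM libraries, so that a low or high Tr-BrM level moves both in opposite directions.

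In the HOXA cluster of PC9, HOXA5 had 2.57, 3.60 and 3.55 CPM in S100A9-inh, against 1.15, 1.17 and 1.69 CPM in Tr-BrM controls, a log2 change of 1.27 ± 0.25 (adjusted p = 5.88e-05 in edgeR). HOXA6 had 1.26, 1.01 and 0.75 CPM in S100A9-inh, against 0.16, 0.39 and 0.46 CPM in Tr-BrM controls (log2 1.57 ± 0.44). HOXA3 had 5.32, 7.01 and 5.69 CPM in S100A9-inh, against 4.32, 4.48 and 5.27 CPM in Tr-BrM controls (log2 0.36 ± 0.15, adjusted p = 0.0452 in edgeR). None of these groups overlapped. HOXA9, with 0.92, 1.71 and 1.18 CPM in S100A9-inh against 0.47, 0.88 and 0.41 CPM in Tr-BrM controls, rose by 1.11 ± 0.38, and HOXA11 rose by 0.84 ± 0.36, with 1.02, 1.01 and 1.45 CPM in S100A9-inh against 0.83, 0.44 and 0.66 CPM in Tr-BrM controls. The calls of HOXA3, HOXA9 and HOXA11 were not made by DESeq2 (adjusted p 0.154, 0.0508 and 0.142). They were lost without Tr-BrM replicate 1 or 2 or S100A9-inh replicate 2 or 3 for HOXA3 (0.0505 to 0.272), Tr-BrM replicate 1 or 3 or S100A9-inh replicate 2 for HOXA9 (0.0608 to 0.118), and Tr-BrM replicate 2 or 3 or any S100A9-inh replicate for HOXA11 (0.056 to 0.207).

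Of the HOXC genes of PC9, HOXC4 and HOXC6 rose under S100A9-inh. HOXC4 had 0.63, 1.25 and 0.59 CPM in S100A9-inh, 51 counts in all, against 0 counts in Tr-BrM controls, and was at least 16.5-fold higher. HOXC6 had 1.98, 1.98 and 1.77 CPM in S100A9-inh, against 0.68, 0.19 and 0.51 CPM in Tr-BrM controls (log2 2.06 ± 0.32). The other tested HOXC genes gave log2 changes of 0.51 ± 0.26 for HOXC8, 0.36 ± 0.24 for HOXC9, -0.20 ± 0.13 for HOXC11 and 0.27 ± 0.13 for HOXC13 and did not pass. HOXC8 had 1.60, 2.95 and 1.61 CPM and HOXC9 2.08, 1.43 and 2.47 CPM in S100A9-inh. HOXC11 had 7.21, 5.86 and 6.55 CPM and HOXC13 6.10, 5.58 and 5.32 CPM in S100A9-inh. All of these overlapped the Tr-BrM controls except HOXC13. In the same comparison 3 of 8 tested genes within 1 Mb of HOXA rose and 1 fell (median 0.01). Within 5 Mb of HOXA 22 of 40 rose and 3 fell (median 0.32), where the median over chromosome 7 was 0.05. Around HOXC 25 of 29 tested genes within 1 Mb rose and 0 fell (median 0.53), and over chromosome 12 380 of 672 rose and 89 fell (median 0.32), shifts whose part in the HOXA and HOXC values was not tested. Without S100A9-inh replicate 1 the medians were 0.01 within 1 Mb and 0.36 within 5 Mb of HOXA. They were 0.52 within 1 Mb of HOXC and 0.31 over chromosome 12. Of the 6 tested HOX locus RNAs 4 rose: HOXB-AS3 by 1.59 ± 0.17, HOXC-AS2 by 1.81 ± 0.43, HOXA-AS2 by 0.46 ± 0.18 and HOTAIR by 0.59 ± 0.24, with HOTAIR at 1.55, 2.54 and 2.96 CPM in S100A9-inh against 1.46, 1.61 and 1.59 CPM in Tr-BrM controls. Without S100A9-inh replicate 1 all 4 were called again, HOTAIR at a log2 change of 0.82 ± 0.24, and HOXA-AS3 rose as well (adjusted p = 0.0231 in edgeR). Over all tested genes, with every library kept, 26.3% rose and 26.1% fell. Fibroblast markers summed to 17.4 to 20.2 CPM in S100A9-inh, 12.8 to 15.2 CPM in Tr-BrM controls and 26.7 to 27.2 CPM in BrM controls of PC9, with LUM, THY1 and DPT at 0 in every group. Astrocyte and neural markers summed to 92.6 to 95.3 CPM in S100A9-inh, 158 to 168 CPM in Tr-BrM controls and 87.3 to 94.1 CPM in BrM controls, with OLIG2 at 0 in every group. The part of these markers in the HOX results was not tested.

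Against BrM controls, S100A9-inh in PC9 had 6 members higher and 6 lower of 20 tested, where 46.3% of all tested genes were called, 22.7% higher and 23.6% lower. HOXA3 and HOXA6 were higher by 0.57 ± 0.15 and 1.79 ± 0.45, HOXA5 was 2.43-fold higher, and HOXB6, HOXB9 and HOXB13 by 0.44 ± 0.13, 0.95 ± 0.36 and 0.73 ± 0.17. Among the HOXC genes 5 of 6 tested were lower, HOXC4 by a log2 change of -1.29 ± 0.32, HOXC6 by -0.93 ± 0.22, HOXC9 by -0.68 ± 0.21, HOXC11 by -0.86 ± 0.12 and HOXC13 by -0.64 ± 0.12, and HOXB3 was lower by -0.45 ± 0.16. The median of the 29 tested genes within 1 Mb of HOXC was -0.04 in this comparison. Around HOXA 6 of 8 tested genes within 1 Mb were higher and 1 lower (median 0.46), and within 5 Mb 29 of 40 were higher and 1 lower (median 0.56), where the median over chromosome 7 was 0.13. The part of this shift in the HOXA changes was not tested. Calls of HOXB3, HOXB9 and HOXC9 were lost without S100A9-inh replicate 2, of HOXB3 and HOXB9 also without BrM replicate 1 or 3, and of HOXB9 without S100A9-inh replicate 3 (adjusted p 0.0529 to 0.192 over these). DESeq2 did not call HOXB3, HOXB9 or HOXC9 here either (adjusted p 0.1175, 0.1093 and 0.0525). Without S100A9-inh replicate 1 the counts were 7 higher and 6 lower, with HOXB7 added (log2 0.30).

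**Figure D4:**
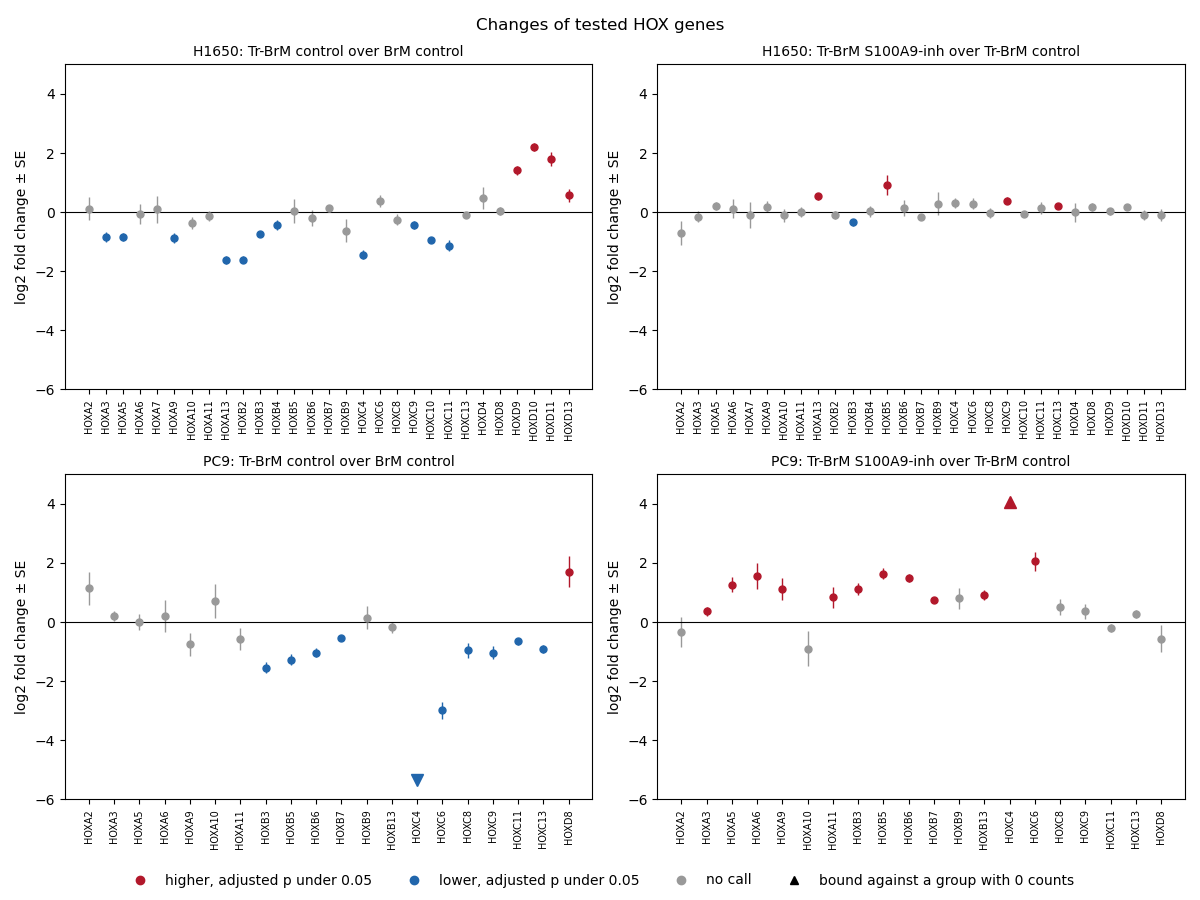
Log2 fold change ± SE of tested HOX genes for Tr-BrM over BrM controls (left) and S100A9-inh over Tr-BrM controls (right) in H1650 (top) and PC9 (bottom), coloured by the edgeR call. Triangles are bounds against a group with 0 counts. In H1650 HOXD genes lead the rises on the left and few genes move on the right, and in PC9 HOXB and HOXC genes are lower on the left and HOXA and HOXB genes higher on the right.

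Summed over a cluster, given as values with no test, HOXD of H1650 reached 32.0, 33.3 and 31.0 CPM in S100A9-inh, 29.5, 33.0 and 27.5 CPM in Tr-BrM controls and 12.9, 12.6 and 13.2 CPM in BrM controls. HOXA of H1650 summed to 25.4, 28.6 and 27.3 CPM in S100A9-inh, 21.8, 25.9 and 25.2 CPM in Tr-BrM controls and 39.1, 39.3 and 37.6 CPM in BrM controls. All 39 genes together averaged 143.9 ± 7.16 CPM in S100A9-inh, 135 ± 0.81 CPM in Tr-BrM controls and 162 ± 5.40 CPM in BrM controls of H1650 (SD, n = 3 each). In PC9 they averaged 81.5 ± 4.24 CPM in S100A9-inh, 50.1 ± 1.26 CPM in Tr-BrM controls and 81.2 ± 5.39 CPM in BrM controls. The PC9 sum in S100A9-inh and in BrM controls differed by less than the spread between libraries, but the clusters made it up differently. HOXA held 13.7 ± 1.71 CPM in S100A9-inh and 8.54 ± 0.84 CPM in BrM controls. HOXB held 47.6 ± 3.67 CPM in S100A9-inh and 39.3 ± 2.83 CPM in BrM controls, and HOXC 19.6 ± 0.43 CPM in S100A9-inh and 33.1 ± 1.68 CPM in BrM controls. Without S100A9-inh replicate 1 the S100A9-inh means were 83.7 CPM for all genes, 14.7 CPM for HOXA, 49.1 CPM for HOXB and 19.3 CPM for HOXC (n = 2).

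**Figure D5:**
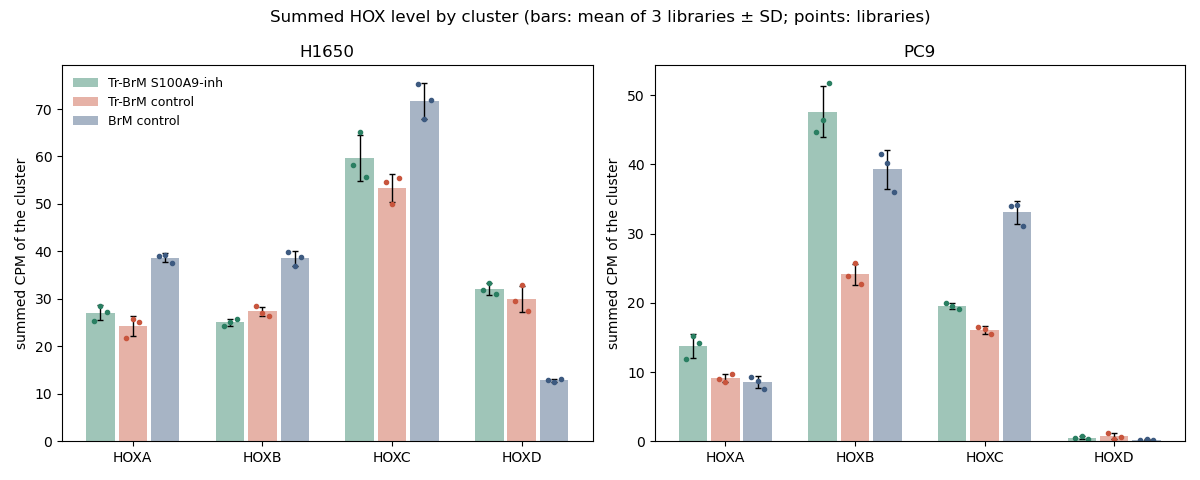
Summed CPM of each HOX cluster in each library, with bars at the mean of 3 libraries, error bars of 1 SD and points for libraries. H1650 HOXD stands near 30 CPM in both Tr-BrM groups and near 12.9 CPM in BrM controls, and PC9 HOXB stands at 47.6, 24.1 and 39.3 CPM in S100A9-inh, Tr-BrM controls and BrM controls.

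The lines were compared by the difference of their changes, in 1 model of all 18 libraries and 19076 tested genes. For Tr-BrM over BrM controls 13 of 30 tested HOX members differed between PC9 and H1650, a smaller share than the 54.6% of all tested genes. The PC9 change was the lower one for HOXB3, HOXB5, HOXB6, HOXB7, HOXC4, HOXC6, HOXC9 and HOXC13. HOXC6 gave the largest difference among genes with counts in every group, -3.37 ± 0.36 (adjusted p = 8.74e-11 in edgeR), with log2 changes of -2.99 in PC9 and 0.38 in H1650. For HOXA3 and HOXA5 the PC9 change was the higher one, by 1.04 ± 0.24 and 0.85 ± 0.30. The differences of HOXA13, HOXB13 and HOXD8 rested on low counts in one of the lines. Of the members that rose in H1650, HOXD9, HOXD10 and HOXD11 had 0 counts in PC9 and could not be compared, and HOXD13, with 1 count in all PC9 libraries, was not called (adjusted p = 0.281 in edgeR). Without replicate 1 of PC9 S100A9-inh 15 members differed, with HOXC8 (adjusted p = 0.0434 in edgeR) and HOXA7, at low counts, called as well.

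For S100A9-inh over Tr-BrM controls 8 of 30 tested members differed between the lines, a smaller share than the 40.4% of all tested genes. The PC9 change exceeded the H1650 change for HOXB7 by 0.91 ± 0.13, HOXB3 by 1.45 ± 0.22, HOXB6 by 1.35 ± 0.29, HOXA5 by 1.07 ± 0.28, HOXA6 by 1.46 ± 0.55 and HOXC6 by 1.77 ± 0.37. The other two were HOXC4, fitted against a group at 0 counts in PC9, and HOXA13, which averaged at most 0.25 CPM in any PC9 group and gave a lower PC9 change. HOXB5 was not called, at a difference of 0.71 ± 0.38 (adjusted p = 0.141 in edgeR), and rose in both lines. Without replicate 1 of PC9 S100A9-inh 8 members again differed, with HOXA6 no longer called (adjusted p = 0.0862 in edgeR) and HOXA9 called in its place (adjusted p = 0.0218 in edgeR). Counts per gene come from tables made with partly different gene models, since 16 members carried another identifier version in PC9 than in H1650, but each change is measured within 1 table.

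Proteins that act with HOX proteins or on the clusters were measured as listed groups. Beside their counts stand the shares over all tested genes. In Tr-BrM over BrM controls these were 32.2% higher and 31.7% lower in H1650, and 29.6% higher and 30.3% lower in PC9. In S100A9-inh over Tr-BrM controls they were 15.4% higher and 13.8% lower in H1650, and 26.3% higher and 26.1% lower in PC9. Of the 9 cofactors of the PBX, MEIS and PKNOX families tested in H1650, 4 rose and 3 fell in Tr-BrM controls. PBX2 and MEIS3 rose by 0.53 and 0.50, and PBX4 fell by 0.75. In PC9 3 of 8 tested cofactors rose and 4 fell.

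Among Polycomb genes, 5 of 12 members of PRC1 rose and 5 fell in H1650 Tr-BrM controls, with BMI1, which forms its core with RING1 proteins, lower by 1.23 and CBX2 by 0.98, where CBX6 rose by 0.94. In PC9 Tr-BrM controls 3 of 12 rose and 6 fell, BMI1 by 0.70 and CBX6 by 0.57. PRC2, which methylates lysine 27 of histone H3, had 3 of 11 tested members higher and 5 lower in H1650 Tr-BrM controls, with MTF2 up by 0.53. In PC9 Tr-BrM controls 5 of 12 rose and 3 fell, with EPOP, a PRC2-associated protein, higher by 1.43 ± 0.08 and the methyltransferase EZH2 by 0.39 ± 0.05. Under S100A9-inh against Tr-BrM controls 3 of 12 rose and 6 fell in PC9, EPOP by 0.91 and EZH2 by 0.37 among them. In H1650 0 of 11 rose and 4 fell. Without PC9 S100A9-inh replicate 1 EPOP and EZH2 fell by 0.88 and 0.37, and again 3 of 12 rose and 6 fell.

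Of 14 MLL/trithorax genes and related activators, 9 rose and 1 fell in H1650 Tr-BrM controls, among them KMT2B by 0.47 and the demethylase KDM6B by 0.66. In PC9 2 rose and 5 fell, and the largest change was that of KMT2D, at 235, 231 and 214 CPM in S100A9-inh, 147, 134 and 138 CPM in Tr-BrM controls and 276, 269 and 268 CPM in BrM controls. Under S100A9-inh against Tr-BrM controls 2 of the 14 rose and 4 fell in PC9, with or without S100A9-inh replicate 1, and 1 rose and 5 fell in H1650. KMT2D fell by 0.96 ± 0.04 in Tr-BrM over BrM controls and rose by 0.70 ± 0.04 in S100A9-inh over Tr-BrM controls, or by 0.68 ± 0.04 without S100A9-inh replicate 1. Like the HOXC cluster it lies on chromosome 12, as does the retinoic acid receptor gene RARG, which in PC9 fell by 0.67 in Tr-BrM over BrM controls and rose by 0.87 in S100A9-inh over Tr-BrM controls. Of the ParaHOX, EVX and MEOX genes, relatives of the HOX genes, 1 of 10 passed the low-count filter in H1650 and 0 of 10 in PC9.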

How the data were processed

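RNA-seq of H1650 and PC9 was deposited as 1 table of whole-number read counts per gene and line, not normalized. Per the submitters' processing notes, STAR, the build GRCh38, R 4.0.1 and DESeq2 1.28.1 were used. The notes list the same version beside STAR as beside R, which looks like a slip and is not used here. No source used here gives the counting tool, the annotation release or the strand setting. Every column was matched to its sample by name.

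Counts were scaled with TMM and tested in edgeR 4.0.16 (R 4.3.3) with the quasi-likelihood F test, over the 9 libraries of a line and over all genes that passed filterByExpr, 17937 in H1650 and 16169 in PC9. P-values were adjusted by Benjamini-Hochberg over all tested genes, with a threshold of 0.05. The lines were compared by an interaction contrast over all 18 libraries. CPM use the TMM-scaled library totals, and RPKM use the union of exons in GENCODE 29. Of the 18 pairs of replicates 0 held identical values, and each differed by more than sampling noise (chi-square 1.54 to 6.51 times its degrees of freedom). Total counts per library were 17.40 to 27.11 M, and the bounds against groups at 0 use a floor of 3 counts over the group, which covers counting error only.

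Alternatives were library size alone, upper quartile and RLE scaling, no filter, a filter at 1 CPM in 3 libraries, DESeq2 1.42.0, a minimum fold of 1.5 (glmTreat), the 6 libraries compared, and leaving out each library in turn. For results beside the HOX tests, leaving out replicate 1 of PC9 S100A9-inh was added after seeing the data. The main edgeR fit of each line was tested on simulated counts first, for Tr-BrM over BrM controls only. Changes were simulated only in genes with a mean above 1 CPM, and every gene had the same spread. The simulation therefore does not cover changes of members below 1 CPM or spreads that differ between genes. The model of all 18 libraries and the alternatives were not tested in this way. Values in every library are given for members with a group mean of at least 1 CPM, or in a called comparison that rests on fewer counts, and other lists are given by counts with up to 4 called members of smallest p, beside others chosen after their values were seen. The members and the lists of genes were chosen with earlier results of these data known. Values of some genes, 1 member among them, are not reported here or drawn by gene, while counts, medians and sums include them.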

Additional observations from a re-analysis of the deposited data

Results flagged for a closer look

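The change of 21 comparisons of HOX genes differed between PC9 and H1650 by the test of the difference itself (edgeR, adjusted over 19076 genes). Of 30 tested members, 13 differed for Tr-BrM over BrM controls and 8 for S100A9-inh over Tr-BrM controls. Among all tested genes 54.6% and 40.4% did. Values are the PC9 log2 change minus the H1650 log2 change.

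For Tr-BrM over BrM controls the difference was -0.81 for HOXB3, -1.30 for HOXB5, -0.85 for HOXB6 and -0.67 for HOXB7. It was -7.15 for HOXC4, -3.37 for HOXC6, -0.62 for HOXC9 and -0.80 for HOXC13. The PC9 change was the higher one for HOXA3 by 1.04, HOXA5 by 0.85, HOXA13 by 2.57, HOXB13 by 2.16 and HOXD8 by 1.66. For S100A9-inh over Tr-BrM controls it was higher by 1.07 for HOXA5, 1.46 for HOXA6, 1.45 for HOXB3, 1.35 for HOXB6, 0.91 for HOXB7, 6.98 for HOXC4 and 1.77 for HOXC6, and for HOXA13 the difference was -1.63. Both values of HOXC4 were fitted against a group with 0 counts and depend on the prior count, so they are no bounds.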

How the results depend on the processing

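Of 129 results on single HOX genes 72 were called, and 34 of these kept their call and direction in every alternative run, while 0 called results changed sign. With a 1.5-fold minimum (glmTreat) the counts of called members were 9 in place of 15 for H1650 Tr-BrM over BrM controls, 10 in place of 17 for H1650 S100A9-inh over BrM controls, 7 in place of 11 for PC9 Tr-BrM over BrM controls, 6 in place of 12 for PC9 S100A9-inh over Tr-BrM controls and 2 in place of 12 for PC9 S100A9-inh over BrM controls. Between lines they were 6 in place of 13 for Tr-BrM over BrM controls and 5 in place of 8 for S100A9-inh over Tr-BrM controls. For H1650 S100A9-inh over Tr-BrM controls the 5 calls became 0 (0 also at an unadjusted p under 0.05, and 1 in DESeq2), and 3 with no filter on low counts. Leaving out 1 library of that comparison gave 2 to 3 calls, with 2 without Tr-BrM replicate 2 or S100A9-inh replicate 1 or 3, and 3 without any of the others. A stricter minimum calls fewer genes by construction, and otherwise the cause was not tested. No paired analysis was possible because the labels carry no shared replicate numbers. Per length, 23 of 43 RPKM values in BrM controls moved by more than the spread between replicates when the longest transcript replaced the union of exons, while HOXC13 in H1650 and HOXB7 in PC9 led in every group with either length. Genes under 1 CPM rest on few counts.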

Other observations

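Other lists measured beside the HOX genes are given as counts. Among all tested genes, Tr-BrM over BrM controls gave 32.2% higher and 31.7% lower in H1650, and 29.6% higher and 30.3% lower in PC9. S100A9-inh over Tr-BrM controls gave 15.4% higher and 13.8% lower in H1650, and 26.3% higher and 26.1% lower in PC9. Of 8 listed regulators of HOX expression, 4 rose and 3 fell in H1650 Tr-BrM over BrM controls, among them the retinoic acid receptors RARB, higher by 2.60, RARG by a log2 change of -1.17 and RARA by -0.93, and 3 rose and 3 fell in PC9. Under S100A9-inh 0 rose and 4 fell in H1650 against Tr-BrM controls, and 2 rose and 3 fell in PC9, or 2 rose and 2 fell without S100A9-inh replicate 1, where GMNN was no longer called (adjusted p = 0.177 in edgeR). Of 7 tested genes that flank the clusters, 1 rose and 3 fell in H1650 Tr-BrM over BrM controls, and 5 rose and 2 fell in PC9, where SNX10 and CBX3 beside HOXA rose by 0.80 and 0.83.

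Leukocyte markers summed to 112 to 121 CPM in S100A9-inh, 103 to 110.0 CPM in Tr-BrM controls and 94.7 to 96.3 CPM in BrM controls of H1650, and to 23.8 to 28.99 CPM in S100A9-inh, 17.4 to 18.4 CPM in Tr-BrM controls and 33.0 to 33.7 CPM in BrM controls of PC9. CSF1R made up most of the H1650 sums, with 77.5 CPM in Tr-BrM controls and 85.9 CPM in BrM controls, and fell by 0.15. Of 8 tested leukocyte markers 6 rose in H1650 Tr-BrM over BrM controls, among them PTPRC by 2.23, TYROBP by 2.42, ITGAM by 2.37 and LAPTM5 by 1.71 on the log2 scale. In PC9 the lower Tr-BrM sum went with 3 of 5 tested leukocyte markers higher and 1 lower against BrM controls (median log2 change 0.86). Of the 10 leukocyte markers, 5 reached 1 CPM in S100A9-inh, 3 in Tr-BrM controls and 1 in BrM controls of PC9. Their part in the HOX results was not tested. Endothelial markers summed to 42.2 to 48.1 CPM in S100A9-inh, 47.1 to 53.7 CPM in Tr-BrM controls and 44.0 to 45.9 CPM in BrM controls of H1650, and to 60.5 to 66.7 CPM in S100A9-inh, 81.2 to 82.5 CPM in Tr-BrM controls and 61.4 to 63.5 CPM in BrM controls of PC9.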
